A study of Homo sapiens with 8 samples.

Results

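EEF1A2 and the other cytosolic translation elongation factors were followed in PNT2 cells, an immortalised line of normal human prostate epithelium, after loss of the transcriptional repressors ERF and CIC. The set holds 7 genes of the 33791 with matched transcripts: EEF1A1, EEF1A2, EEF1B2, EEF1D, EEF1G, EEF2 and EEF1E1. EEF1A2 was chosen on its measured values, as the 1 gene called higher in the ERF KD + CIC KO libraries than in WT, and the other 6 by name as members of the elongation complex or proteins named for it. Its difference between those 2 groups is therefore given as a description, without a test, as is every comparison that uses a WT or an ERF KD + CIC KO library for EEF1A2. Among the genes with a positive difference, those next to it were GNB1L, ETV4 and BRSK2, with log2 fold changes of 1.18, 1.61 and 1.60 that just missed the threshold, while EEF1A2 stood at 1.15 with a smaller standard error (0.13).

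RNA was sequenced from 4 groups with 2 libraries each, A and B: unmodified PNT2 cells (WT), a group labelled ERF KD (knockdown by short hairpin RNA), a group labelled CIC KO (knockout by Cas9 and a guide RNA), and a group carrying both (ERF KD + CIC KO). The last group is labelled CIC-ERF codeletion and is called ERF KD + CIC KO here, after the study's name for its doubly modified cells. The study's methods name more than 1 hairpin and guide, and the labels do not say which construct each library received, what the letters stand for, or whether the libraries came from separate cultures, so the p-values measure the spread between these libraries, which may be technical. Each library held 19477473 to 25813157 estimated counts, of which 14653 genes passed a filter on low counts, the 7 elongation factors among them. ERF mRNA was 55.8 and 55.9 CPM (counts divided by the scaled library total) in WT, 81.2 and 77.8 CPM in the libraries labelled ERF KD, 18.8 and 11.7 CPM in those labelled CIC KO, and 11.6 and 10.4 CPM in ERF KD + CIC KO. The libraries labelled ERF KD thus held more ERF mRNA than WT and those labelled CIC KO held less, against both labels, so each single-loss group is called here by its label alone and no direction is drawn from it about the factor it names. CIC mRNA was 128 and 129 CPM in WT, 108.5 and 108.9 CPM in labelled ERF KD, 132 and 131 CPM in labelled CIC KO, and 90.9 and 66.4 CPM in ERF KD + CIC KO, although a guide RNA need not lower the mRNA of its target.

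The libraries labelled ERF KD also stood apart in markers of epithelium. Their summed prostate epithelium markers lay at 1317 to 1605 CPM against 3093 to 4292 CPM in the other 6 libraries, and 5 of the 7 tested genes of that list fell against WT, E-cadherin (CDH1) by 4.41 and EPCAM by 3.07 on the log2 scale. Their summed mesenchyme and leukocyte markers lay at 1601 to 1993 CPM against 97.5 to 242 CPM elsewhere, nearly all of it vimentin (VIM). KLK3 was at 0 in every library, and TP63, a marker of basal cells, stayed under 1 CPM in all of them. These markers move with every comparison that involves labelled ERF KD, and their part in the values of EEF1A2 was not tested.

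Elongation is the step of protein synthesis at which the ribosome adds amino acids one by one. eEF1A, in its GTP-bound form, carries aminoacyl-tRNA to the ribosome, the eEF1B complex (EEF1B2, EEF1D and EEF1G) reloads eEF1A with GTP, and eEF2 moves the ribosome along the mRNA by 1 codon. eEF1A is made by a pair of closely related genes: EEF1A1 is expressed in nearly all cells, whereas EEF1A2 is known as the form of muscle, heart and neurons and is switched on in several carcinomas. EEF1E1, also known as AIMP3 or p18, is a scaffold protein of the multi-tRNA synthetase complex rather than an exchange factor.

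Because the 2 eEF1A genes are so alike, their sequences decide whether reads can be told apart. The reading frames of EEF1A2-201 (1389 bases) and EEF1A1-203 (1386 bases), the most abundant protein-coding transcript of each gene, matched at 1083 of 1389 aligned positions (78.0%), and the longest stretch without a difference was 20 bases. That stretch, with its surroundings, is shown because it is where the genes are hardest to separate. It lies at coding bases 557 to 646 of both, across an exon junction in each, within chr6:73518824-73518996 for EEF1A1 and chr20:63493263-63494869 for EEF1A2 (GRCh38, minus strand in both, GENCODE v29). Capitals mark the 20 positions that differ.
EEF1A1: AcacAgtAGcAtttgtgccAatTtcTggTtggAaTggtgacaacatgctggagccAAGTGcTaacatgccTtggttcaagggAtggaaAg
EEF1A2: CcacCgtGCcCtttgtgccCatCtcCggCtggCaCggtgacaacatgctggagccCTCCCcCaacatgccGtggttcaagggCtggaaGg
The end of the reading frame, at chr6:73517813-73517899 and chr20:63488301-63488390, differs at 24 aligned positions, again in capitals, 3 of them bases that EEF1A1 lacks.
EEF1A1: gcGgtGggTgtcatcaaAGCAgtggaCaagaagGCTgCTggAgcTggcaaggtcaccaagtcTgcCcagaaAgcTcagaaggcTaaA
EEF1A2: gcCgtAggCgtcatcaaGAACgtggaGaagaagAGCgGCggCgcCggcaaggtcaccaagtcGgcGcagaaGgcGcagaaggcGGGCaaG

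No sequence of 31 bases in the EEF1A2 transcripts of the files (0 of 2011) occurred in a transcript of another gene, and the same held for EEF2 (0 of 4039). EEF1A1 shared 22.9% of its 31-base sequences with other genes, most of them its own pseudogenes, yet the 38 annotated EEF1A1 pseudogenes together held at most 0.0588% as many counts as EEF1A1 in any library. EEF1B2 shared 26.8%, all with its own pseudogenes, which held at most 0.119% of its counts. EEF1G is the uncertain member, since 97.8% of its 31-base sequences occurred elsewhere, mainly in the overlapping same-strand gene AP002990.1, which was assigned 7.93 to 14.2 CPM, at most 1.15% of the EEF1G level in the same library. EEF1D shares 261 exonic bases with TIGD5 and EEF1B2 shares 19 with NDUFS1 on the opposite strand, and whether the counting used strand is not given in the sources used here.

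EEF1A2 (ENSG00000101210, chr20:63488012-63499322, minus strand) was the member that varied between groups. It was read at 249.0 and 250.8 CPM in WT (249.9 ± 1.31, SD, n = 2). Both labelled ERF KD libraries were low, at 56.6 and 58.1 CPM (57.3 ± 1.05). Labelled CIC KO had 299.1 and 323.6 CPM (311 ± 17.3), and ERF KD + CIC KO had 585.7 and 524.2 CPM (555 ± 43.5). No 2 groups overlapped, and the order was labelled ERF KD, WT, labelled CIC KO, ERF KD + CIC KO. The gap between WT and labelled CIC KO, neighbours in that order, was the smallest of the 3 in fold. The separation of ERF KD + CIC KO from WT follows from the choice of the gene. How many of all genes separate the groups in this way was not counted.

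**Figure D1:**
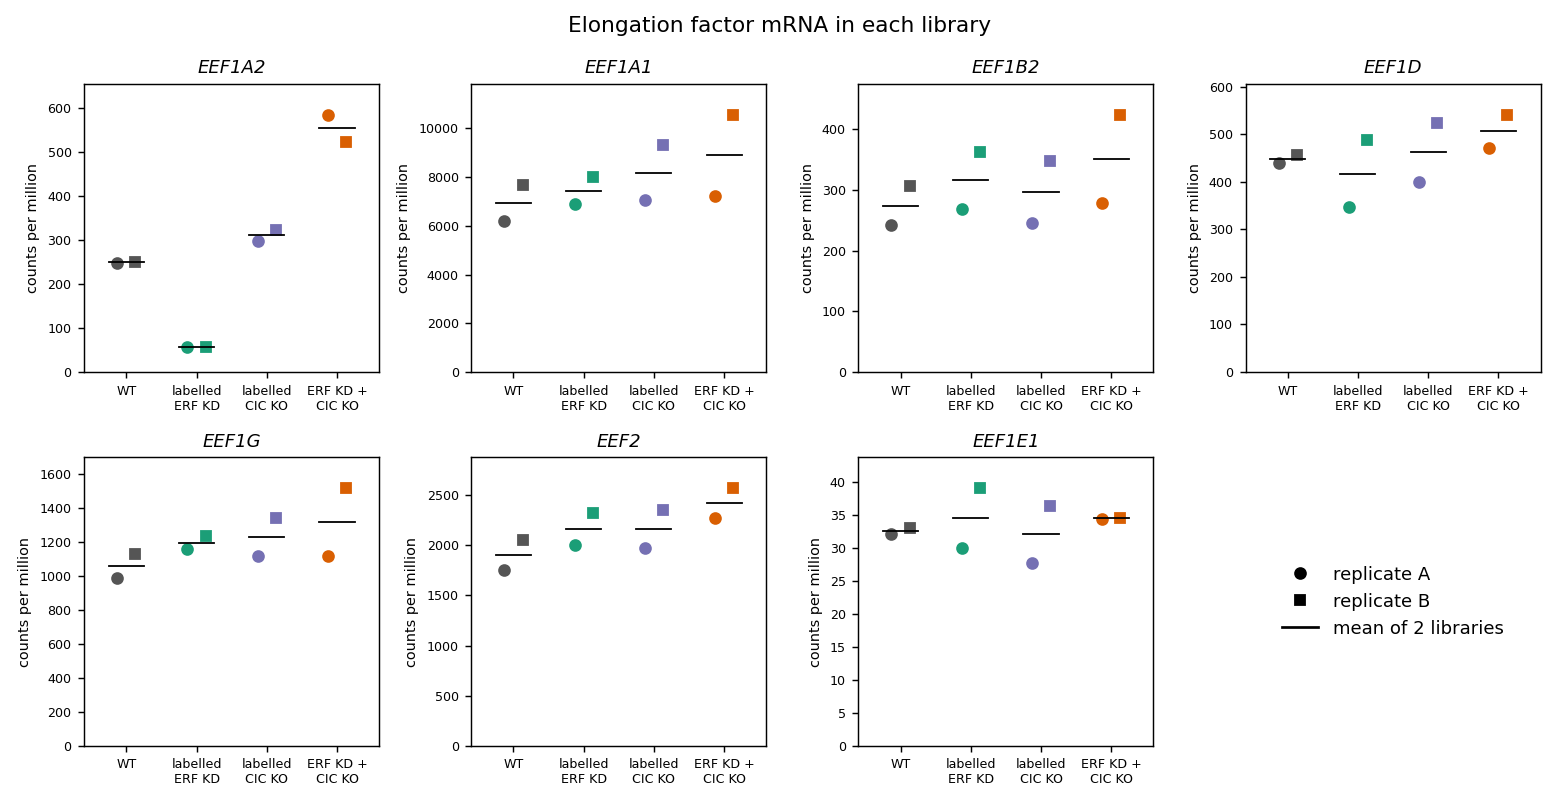
Level in CPM (y axis, from 0) of each elongation factor in the 8 libraries by group (x axis); circles are replicate A, squares replicate B and lines the mean of 2 libraries. EEF1A2, chosen for its difference between WT and ERF KD + CIC KO, runs from 56.6 CPM in labelled ERF KD to 585.7 CPM in ERF KD + CIC KO. The other 6 members have replicate B above A in every group, with differences between groups that did not pass the test.

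As descriptions, the log2 fold changes of EEF1A2 against WT were −2.12 ± 0.13 (SE) in labelled ERF KD (4.36-fold lower), 0.32 ± 0.13 in labelled CIC KO (1.25-fold higher) and 1.15 ± 0.13 in ERF KD + CIC KO (2.22-fold higher). ERF KD + CIC KO lay 9.68-fold above labelled ERF KD and 1.78-fold above labelled CIC KO. These comparisons share libraries and are not independent of each other. The difference of ERF KD + CIC KO from the sum of both single effects was 2.96 ± 0.18 on the log2 scale.

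The difference between the 2 single-loss groups contains no library of the groups that chose the gene, although its error was estimated from all 8 libraries. EEF1A2 was lower in labelled ERF KD than in labelled CIC KO by a log2 fold change of −2.44 ± 0.13 (SE; 95% interval −2.75 to −2.14), a 5.43-fold difference (edgeR quasi-likelihood test, adjusted p = 4.82e-05). Fitted with the 4 single-loss libraries alone, it was −2.45 ± 0.15 (adjusted p = 0.00174). Of all genes tested in this comparison, 9.4% were called. The markers described above separate the same groups: 6 of the 7 tested prostate epithelium genes were also lower in labelled ERF KD, and VIM was higher by 3.33 on the log2 scale.

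The EEF1A2 counts came almost entirely from 1 transcript. Of 7 annotated transcripts 2 were in the files, and the protein-coding EEF1A2-201 held 86.8% to 100% of the gene's TPM, the length-corrected abundance of a transcript relative to all others in its library. The other, EEF1A2-202, annotated as a non-stop decay transcript, reached 13.2% in WT replicate B and 8.62% in labelled ERF KD replicate A, against 3.89% or less elsewhere. EEF1A2-201 alone gave the same order of groups, with 213.0 and 171.7 TPM in WT, 43.1 and 45.9 in labelled ERF KD, 244.6 and 239.7 in labelled CIC KO, and 474.0 and 399.4 in ERF KD + CIC KO.

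EEF1A1 (ENSG00000156508, chr6:73515750-73523797, minus strand), the general form of eEF1A, ranked between the 2nd and the 6th most abundant gene by TPM in every library. Its levels were 6213 and 7662 CPM in WT, 6894 and 7999 CPM in labelled ERF KD, 7044 and 9310 CPM in labelled CIC KO, and 7226 and 10572 CPM in ERF KD + CIC KO. The A libraries of all groups lay below every B library, and the ranges of the 4 groups overlapped. Within each letter, EEF1A1 was higher by CPM in ERF KD + CIC KO than in WT, as were EEF1B2, EEF1D, EEF1G, EEF2 and EEF1E1. By TPM this did not hold for EEF1D in A (764 against 791 in WT) or EEF1E1 in B (79.8 against 80.5 in WT). How many of all genes do so was not counted, so nothing is drawn from it. For EEF1A1, ERF KD + CIC KO against WT gave a log2 fold change of 0.36 ± 0.23 (95% interval −0.16 to 0.88, adjusted p = 0.529) and did not pass the test.

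Per length, EEF1A2 was the minor form throughout. By TPM it made up 3.81% and 3.08% of EEF1A1 plus EEF1A2 in WT, 0.799% and 0.709% in labelled ERF KD, 3.94% and 3.39% in labelled CIC KO, and 7.40% and 4.68% in ERF KD + CIC KO. The share in labelled ERF KD stood below all other libraries and that in ERF KD + CIC KO above them, while WT and labelled CIC KO overlapped. EEF1A1 was 12.5 and 20.4 times as abundant as EEF1A2 in ERF KD + CIC KO and 124 and 140 times in labelled ERF KD. Summed EEF1A ranged from 5635 to 6430 TPM in WT, 5905 to 6463 TPM in labelled ERF KD, 6322 to 7359 TPM in labelled CIC KO and 6559 to 8541 TPM in ERF KD + CIC KO. Neighbouring groups in this order overlapped, while both ERF KD + CIC KO libraries lay above those of WT and labelled ERF KD. The sum includes EEF1A2, and its differences were not tested.

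**Figure D2:**
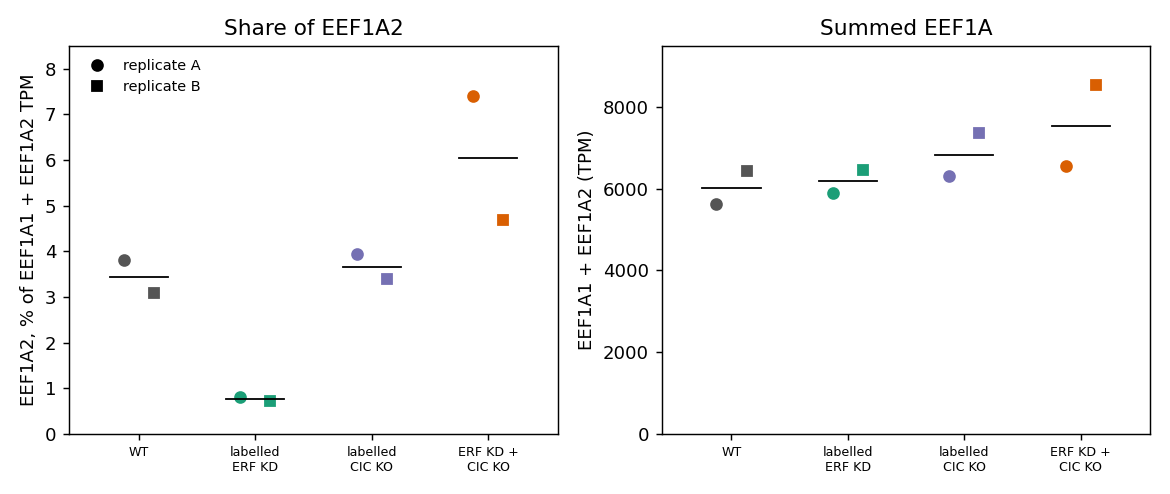
Left, share of EEF1A2 in the summed TPM of EEF1A1 and EEF1A2 (percent); right, that sum (TPM); circles are replicate A, squares replicate B, lines the mean of 2 libraries, and both y axes start at 0. The share runs from 0.709% in labelled ERF KD to 7.40% in ERF KD + CIC KO, and the sum follows EEF1A1.

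The 3 subunits of eEF1B, the exchange factor for eEF1A, did not pass the test in any comparison. EEF1B2 (chr2:206159585-206162928), which carries the exchange activity, was 242 and 306 CPM in WT, 269 and 362 CPM in labelled ERF KD, 245 and 347 CPM in labelled CIC KO, and 279 and 424 CPM in ERF KD + CIC KO. EEF1D, the other subunit with exchange activity, ranged from 346 to 542 CPM over the 8 libraries, and EEF1G, the structural subunit, from 985 to 1517 CPM. The groups of EEF1B2 overlapped. In EEF1D both ERF KD + CIC KO libraries (471 and 542 CPM) lay above both WT libraries (439 and 457 CPM). By TPM they overlapped, at 764 and 821 against 791 and 744. In EEF1G both labelled ERF KD libraries (1158 and 1235 CPM) lay above both WT libraries (985 and 1130 CPM). The share of all genes that separate groups in this way was not counted, so nothing is drawn from it. Against WT, the ERF KD + CIC KO libraries gave log2 fold changes of 0.36 ± 0.26 for EEF1B2 (adjusted p = 0.585), 0.18 ± 0.20 for EEF1D (adjusted p = 0.733) and 0.32 ± 0.18 for EEF1G (adjusted p = 0.489).

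EEF2 (chr19:3976056-3985469), the translocation factor, was 1754 and 2057 CPM in WT, 2005 and 2327 CPM in labelled ERF KD, 1976 and 2348 CPM in labelled CIC KO, and 2268 and 2569 CPM in ERF KD + CIC KO. Both ERF KD + CIC KO libraries lay above both WT libraries, and EEF2 had the smallest adjusted p of the 6 other members in that comparison (log2 fold change 0.34 ± 0.16, 95% interval −0.03 to 0.72, adjusted p = 0.412). EEF1E1 (chr6:8073360-8102578) ranged from 27.7 to 39.0 CPM, with a log2 fold change of 0.08 ± 0.18 for the same comparison (adjusted p = 0.879). Its ERF KD + CIC KO libraries (34.4 and 34.5 CPM) also lay above both WT libraries (32.1 and 33.0 CPM), but by TPM they overlapped (82.2 and 79.8 against 81.6 and 80.5). With counts of 596 to 812 per library EEF1E1 is the least deeply covered member. How many of all genes separate these groups likewise was not counted, so nothing is drawn from the separation of EEF2 or EEF1E1.

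In the edgeR fit, 0 of the 6 other members were called in each of the 7 comparisons, and 0 of 6 had an unadjusted p under 0.05 in any of them. The share of all tested genes called was 10.1% for labelled ERF KD against WT, 0% for labelled CIC KO against WT, 0.0682% for ERF KD + CIC KO against WT, 11.7% for ERF KD + CIC KO against labelled ERF KD, 0% for ERF KD + CIC KO against labelled CIC KO and 4.15% for the interaction. At an unadjusted p under 0.05 the shares of all genes in these comparisons were 24.8%, 4.01%, 13.3%, 26.4%, 8.3% and 17.5%, in the same order. For labelled ERF KD against labelled CIC KO the share was 23.1%. With 6 genes, 0 under the threshold is not read as a result. The log2 fold changes of the 6 members lay between −0.15 and 0.36, and the widest 95% bounds of the pairwise comparisons were −0.66 and 0.96. In ERF KD + CIC KO against WT the median of the 6 was 0.33, beside 0.00184 over all genes, and it was 0.14 (all genes 0.00580) for labelled ERF KD and 0.15 (all genes 0.0120) for labelled CIC KO against WT.

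With the replicate letter as a block, which pairs libraries A and B across groups, more genes were called: 18.2% for labelled ERF KD against WT, 0.00682% for labelled CIC KO against WT, 2.49% for ERF KD + CIC KO against WT, 20.6% for ERF KD + CIC KO against labelled ERF KD, 0.334% for ERF KD + CIC KO against labelled CIC KO, 16.5% for labelled ERF KD against labelled CIC KO and 9.55% for the interaction. The other 6 members stayed uncalled in all of these, with a smallest adjusted p of 0.105, for EEF2 in ERF KD + CIC KO against WT. In that comparison the block raised the number of genes called higher in ERF KD + CIC KO from 1, EEF1A2, to 142, EEF1A2 among them. EEF1A2 being the 1 gene called higher is therefore a property of the edgeR fit used here, and not of every fit without the block. Scaling by library size alone again gave EEF1A2 as the 1 gene, as did some other alternatives. By contrast, DESeq2 called 180 genes higher and edgeR without the filter called 284, EEF1A2 among them in both. A fit restricted to the WT and ERF KD + CIC KO libraries called 3 genes higher, and EEF1A2 was not among them. Without any 1 of the 8 libraries, EEF1A2 was not called in that comparison (0 of 8 fits), with log2 fold changes between 1.06 and 1.23 over all alternatives.

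**Figure D3:**
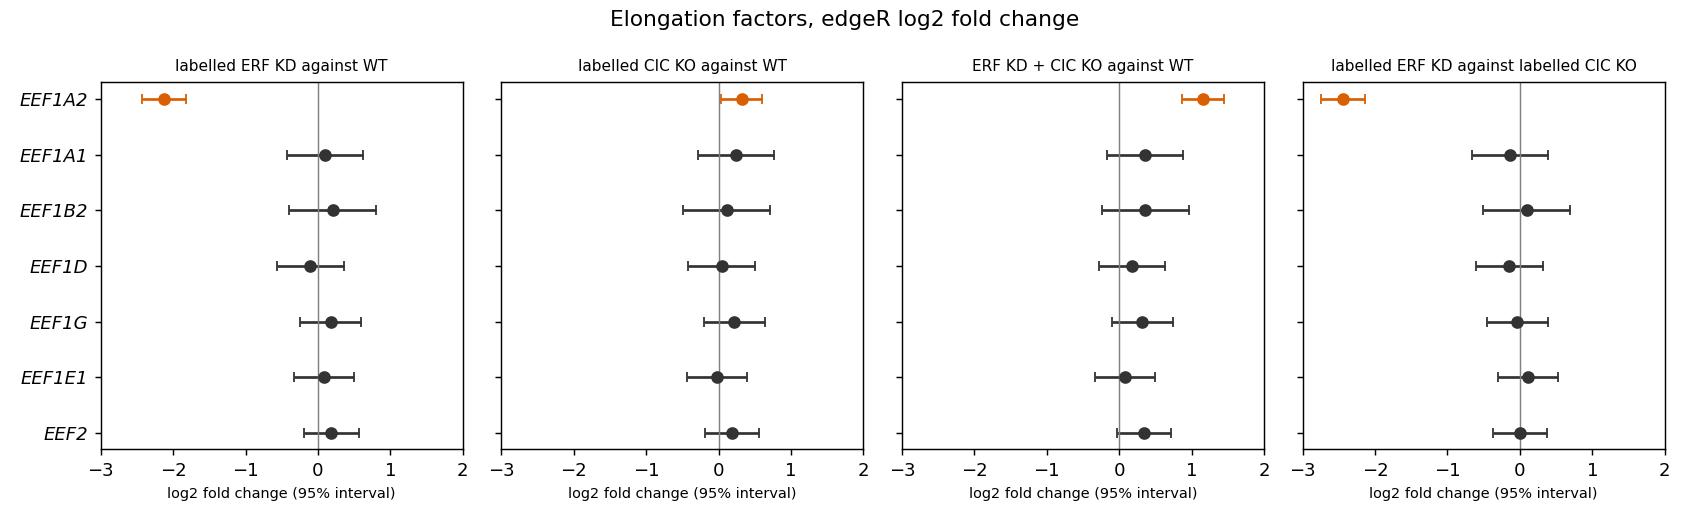
Log2 fold change (x axis) of each elongation factor in 4 comparisons, from the edgeR fit of all 8 libraries; bars are 95% intervals and the grey line is 0. EEF1A2 (orange) lies at −2.12, 0.32, 1.15 and −2.44 from left to right, and the intervals of the other 6 members (black) include 0 in all 4 panels.

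The transcripts of the other members were described by their share of the TPM of the gene. EEF1A1-203 held 56.1% to 61.3% of the EEF1A1 TPM and EEF1A1-201 29.7% to 32.7%, and the retained-intron transcript EEF1A1-206 held 6.21% to 10.9%. EEF2-201 held 93.8% to 98.2% and EEF1G-201 99.0% to 99.9% of their genes. EEF1D was spread over 55 transcripts in the files, the leading one, EEF1D-202, with 22.4% and 28.0% in WT, 26.0% and 23.4% in labelled ERF KD, 26.5% and 31% in labelled CIC KO, and 37.1% and 33.5% in ERF KD + CIC KO. EEF1D-202 was thus highest in both ERF KD + CIC KO libraries. These shares were estimated from reads that many EEF1D transcripts have in common and were not tested.

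What the other members did share was a difference between the A and B libraries. Replicate B was above replicate A in 4 of 4 groups for each of EEF1A1, EEF1B2, EEF1D, EEF1G, EEF2 and EEF1E1. EEF1B2 was higher in B by 0.34 to 0.60 on the log2 scale and EEF1A1 by 0.21 to 0.55. In EEF1A2, B was above A by 0.01, 0.04 and 0.11 in WT, labelled ERF KD and labelled CIC KO, and below A by 0.16 in ERF KD + CIC KO. The letter was tested as a term of the blocked fit after this had been seen in the data, and 4.22% of all genes were called. EEF1B2 (0.47 ± 0.08, adjusted p = 0.0195) and EEF1A1 (0.37 ± 0.08, adjusted p = 0.0396) rose in B. EEF2, EEF1D, EEF1G and EEF1E1 gave 0.22, 0.29, 0.25 and 0.20 without passing, and EEF1A2 gave −0.000333 ± 0.08. Scaled by library size alone, EEF1B2 stayed called (0.41, adjusted p = 0.0279) and EEF1A1 did not (0.31, adjusted p = 0.0598).

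**Figure D4:**
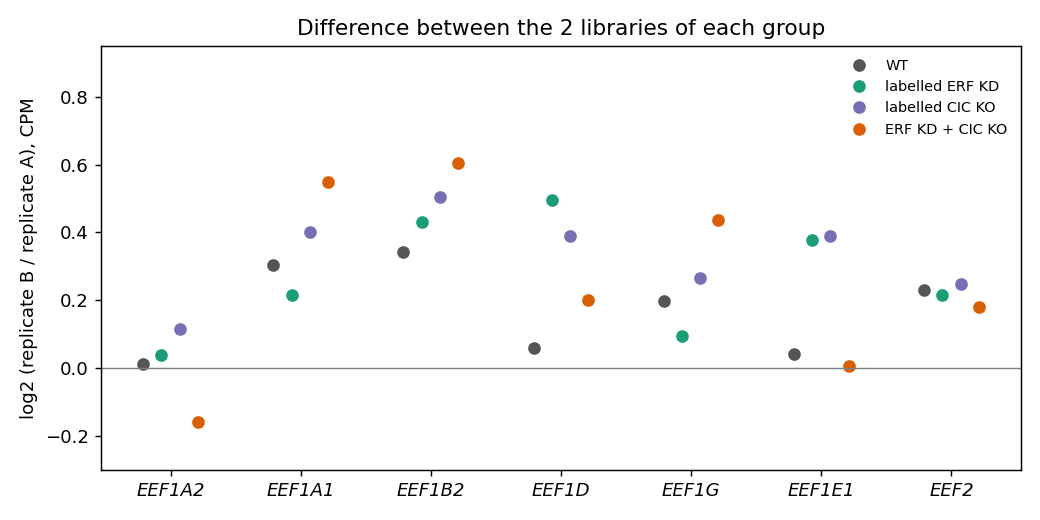
Log2 ratio of replicate B to replicate A in CPM (y axis) for each elongation factor (x axis), with 1 point per group, colours as in the legend. For the 6 other members the points lie above 0 in all 4 groups, up to 0.60 for EEF1B2, and for EEF1A2 they lie between −0.16 and 0.11.

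The 79 cytosolic ribosomal protein genes, whose mRNAs are known to be regulated together with those of the elongation factors, had mostly positive letter differences, few of which passed the test. Of them 78 were above 0 and 11 were called higher in B (4.22% of all genes were called in either direction), with a median of 0.22 beside −0.00724 over all genes, and by library size alone 76 were above 0 and 3 called, with a median of 0.17 beside −0.0631. Many of these mRNAs, EEF1A1 and EEF2 included, are known to start with a C followed by a run of pyrimidines, the 5′ terminal oligopyrimidine (TOP) motif. The 30 bases around the annotated start (15 before it and 15 from it) are shown for the 5 members found in the RefSeq promoter table (GRCh38.p14), because this feature was not used to choose them, with the longest pyrimidine run in capitals. They come from chr6:73521018-73521047 (EEF1A1, minus strand), chr2:206159880-206159909 and chr2:206159594-206159623 (EEF1B2, starts 1 and 2, plus strand), chr19:3985449-3985478 (EEF2, minus), chr11:62573877-62573906 (EEF1G, minus) and chr6:8102534-8102563 (EEF1E1, minus).
EEF1A1: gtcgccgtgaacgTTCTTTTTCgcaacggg
EEF1B2, start 1: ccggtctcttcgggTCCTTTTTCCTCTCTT
EEF1B2, start 2: gccggaagtggCCCCagcctcgaggccggg
EEF2: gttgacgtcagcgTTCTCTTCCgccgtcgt
EEF1G: TCTCCCgggcggcttactttgcggcagcgc
EEF1E1: tgTTCTgcaggtctcgcgtctgccaggagc

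In EEF1A1 and EEF2 the run of 9 pyrimidines began 2 bases before the annotated start, and a run at least as long was present in 9.22% of the 35116 windows of the table. In EEF1B2 the run of 16 at start 1 began 1 base before it, a length reached in 0.692% of windows, while start 2 held a run of 4. EEF1G held a run of 6 away from the start (31.1% of windows) and EEF1E1 a run of 4 (70.7% of windows). EEF1A2 and EEF1D were not among the matched entries. These letters describe the annotated windows, and start sites in these cells were not measured.

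Of the other translation genes, 155 genes on 5 lists of translation factors and ribosomal proteins were tested (1 further gene was not), and few were called. In ERF KD + CIC KO against WT, labelled CIC KO against WT and ERF KD + CIC KO against labelled CIC KO none of the 5 lists had a called gene in the edgeR fit. Among 39 initiation factors, 6 had an unadjusted p under 0.05 in ERF KD + CIC KO against WT, as had 13.3% of all genes, and the list median was 0.23 beside 0.00184 over all genes. In labelled ERF KD against WT, 1 of 39 initiation factors rose and 1 fell, where 10.1% of all genes were called, so the list holds no more calls than genes at large. EIF5, the GTPase-activating protein of the initiation complex, was 439 and 441 CPM in WT and 631 and 669 CPM in labelled ERF KD (log2 fold change 0.56 ± 0.13, adjusted p = 0.0352), and was not called without any 1 of these 4 libraries (0.52 to 0.61, adjusted p 0.0870 to 0.220). EIF4EBP2, a repressor that binds the cap-binding protein eIF4E, was 178 and 179 CPM in WT, 117 and 107 CPM in labelled ERF KD, 165 and 167 CPM in labelled CIC KO, and 168 and 171 CPM in ERF KD + CIC KO. It fell against WT by 0.68 (adjusted p = 0.00846), was 0.57 lower in labelled ERF KD than in labelled CIC KO (adjusted p = 0.0182), and was higher in ERF KD + CIC KO than in labelled ERF KD by 0.60 (adjusted p = 0.0128). The EIF4EBP2 call against WT was lost without WT replicate A, WT replicate B or labelled ERF KD replicate B (−0.69 to −0.61, adjusted p 0.0620 to 0.0721). That against labelled CIC KO was lost without any library of those groups or WT replicate B (−0.63 to −0.51, adjusted p 0.0504 to 0.108), and the last was lost without labelled ERF KD replicate B or either ERF KD + CIC KO library (0.54 to 0.62, adjusted p 0.0569 to 0.0819). The epithelial and mesenchymal markers above move with labelled ERF KD in all of these, and their part was not tested.

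The partners and modifiers of the elongation factors had 22 tested genes, among them eIF5A, the kinase of eEF2, the eEF1A lysine methyltransferases and the enzymes that make the diphthamide of eEF2. EIF5A2, the second gene for eIF5A, a factor that helps ribosomes past difficult peptide bonds, was the 1 gene of this list called. It was 19.2 and 22.8 CPM in WT, 43.0 and 51.1 CPM in labelled ERF KD, 16.6 and 27.5 CPM in labelled CIC KO, and 18.7 and 18.3 CPM in ERF KD + CIC KO. Both labelled ERF KD libraries stood above the other 6, whereas in EEF1A2 they stood below them. The other 6 lay within the range of labelled CIC KO, so only the place of labelled ERF KD was opposite to that in EEF1A2. EIF5A2 rose in labelled ERF KD against WT (1.16 ± 0.24, adjusted p = 0.0187) and against labelled CIC KO (1.09 ± 0.24, adjusted p = 0.0246). It was lower in ERF KD + CIC KO than in labelled ERF KD (−1.35 ± 0.24, adjusted p = 0.00936). On scales that account for transcript length the last difference was −0.60 to −0.55 and was not called (adjusted p 0.141 to 0.201). Leaving out WT replicate A, WT replicate B or labelled ERF KD replicate B ended the EIF5A2 call against WT (1.04 to 1.3, adjusted p 0.0704 to 0.138). Leaving out labelled ERF KD replicate B or labelled CIC KO replicate A ended that against labelled CIC KO (0.97 and 0.77, adjusted p 0.105 and 0.0872), and leaving out either ERF KD + CIC KO library ended the last (−1.36 and −1.33, adjusted p 0.0716 and 0.0628). The list medians stayed between 0.03 and 0.09 in all 7 comparisons.

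Neither the 4 mitochondrial elongation factors nor the 11 genes listed as tRNA synthetase partners were called by edgeR in any comparison (0 of 4 and 0 of 11). With unadjusted p below 0.05, the mitochondrial list had 0 genes in each, and the synthetase list up to 3, in ERF KD + CIC KO against labelled ERF KD (26.4% of all genes). Of the 79 ribosomal protein genes, 0 were called in any comparison, and 72 had log2 fold changes above 0 in ERF KD + CIC KO against WT (median 0.25, all genes 0.00184) and 72 against labelled ERF KD (median 0.26, all genes 0.00360). At an unadjusted p under 0.05 these were 11 and 10 genes, where 13.3% and 26.4% of all genes were under it. With the letter as a block, 12 of 79 ribosomal protein genes were called higher in ERF KD + CIC KO than in labelled ERF KD, where 20.6% of all genes were called in either direction, led by RPS3A (0.61, adjusted p = 0.00976) and RPL34 (0.54, adjusted p = 0.0231). In the same fit RPS23 was higher than in WT (0.60, adjusted p = 0.0414), and PABPC1, the poly(A)-binding protein, was lower in labelled ERF KD than in WT (−0.57, adjusted p = 0.00902).

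EEF1A2 lies near the end of the long arm of chromosome 20, and its protein-coding neighbours were followed to see whether they moved with it. Of 32 genes that start within 500 kb, 25 were tested. PPDPF, which starts 21.4 kb away, was 209 and 254 CPM in WT and 139 and 221 CPM in ERF KD + CIC KO (log2 fold change −0.36 ± 0.22, adjusted p = 0.508). In ERF KD + CIC KO against WT none of the 25 was called, where 0.0682% of all genes were, and their median was −0.17 beside 0.00184 over all genes. PTK6, a kinase of epithelial cells that starts 38.0 kb away, was 2.66 and 3.01 CPM in WT, 0.768 and 0.596 CPM in labelled ERF KD, 2.32 and 2.16 CPM in labelled CIC KO, and 0.974 and 1.13 CPM in ERF KD + CIC KO. It fell in labelled ERF KD against WT by 2.04 (adjusted p = 0.0158) and was lower there than in labelled CIC KO by a log2 difference of −1.71 (adjusted p = 0.0332). The PTK6 call against WT was lost without any 1 library of the groups compared (−2.23 to −1.87, adjusted p 0.0528 to 0.0979). That against labelled CIC KO was lost without any 1 of the 8 libraries (−1.90 to −1.54, adjusted p 0.0505 to 0.143) and in 4 other alternatives, down to −0.73 on log2(TPM + 1), so that it held in 5 of 17.

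BIRC7, an inhibitor of apoptosis 263 kb away on the other side, was near the limit of detection, with 1.0 and 1.22 CPM in WT and 0.0960 and 0 CPM in labelled ERF KD. It was lower in labelled ERF KD than in WT (−4.35 ± 1.04, adjusted p = 0.0352) and than in labelled CIC KO (−4.79 ± 1.03, adjusted p = 0.0235), and on log2(TPM + 1) the first difference was −1.10. The BIRC7 call against WT was lost without any 1 library of the groups compared or labelled CIC KO replicate A (−7.52 to −3.45, adjusted p 0.0502 to 0.138). That against labelled CIC KO was lost without labelled ERF KD replicate B or labelled CIC KO replicate A (−3.89 and −4.47, adjusted p 0.0995 and 0.0927). ARFGAP1, the other tested gene nearest on that side, differed by −0.14 ± 0.17 in labelled ERF KD against WT (adjusted p = 0.679). STMN3, a stathmin 158 kb away, was 56.8 and 54.3 CPM in labelled ERF KD and 19.0 and 28.5 CPM in ERF KD + CIC KO (−1.23 ± 0.23, adjusted p = 0.0114), and was not called without ERF KD + CIC KO replicate A (−0.96, adjusted p = 0.0756). Its direction was opposite to that of EEF1A2, which was higher in ERF KD + CIC KO. The share of neighbours called, 2 of 25 in labelled ERF KD against WT and in labelled ERF KD against labelled CIC KO, and 1 of 25 in ERF KD + CIC KO against labelled ERF KD, stood beside 10.1%, 9.4% and 11.7% of all genes.

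**Figure D5:**
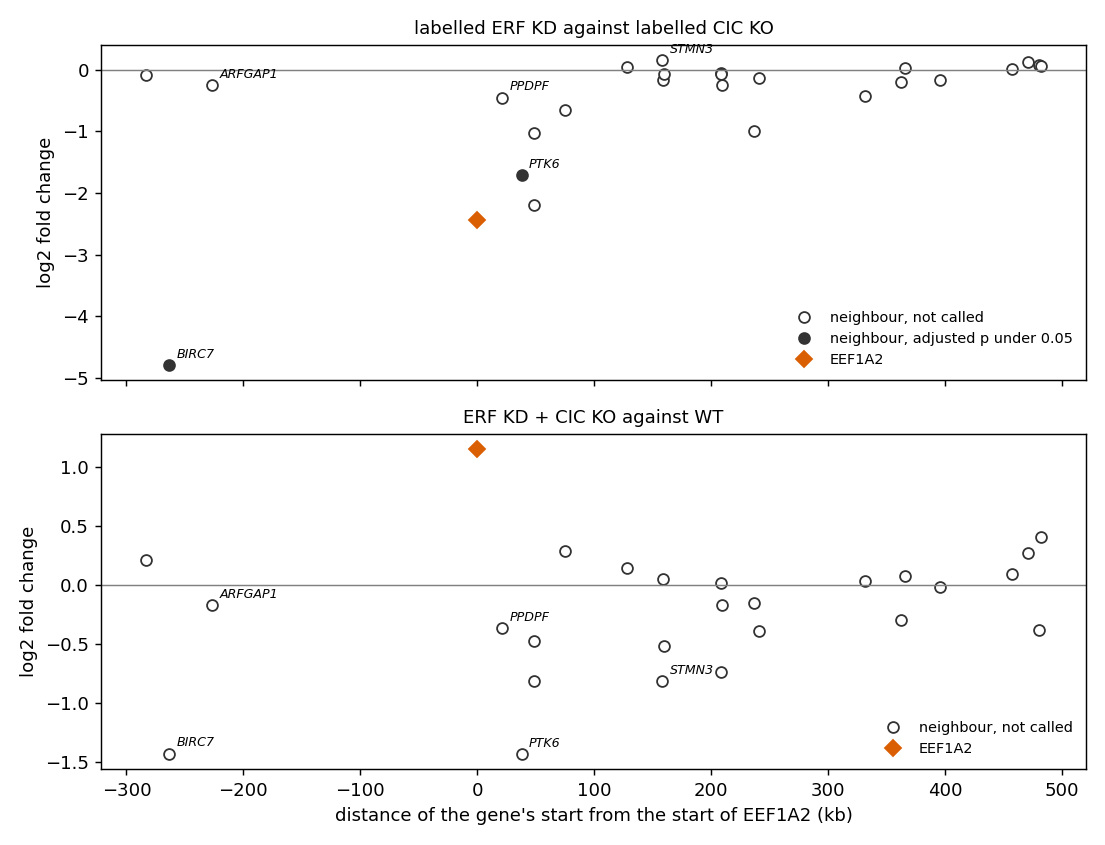
Log2 fold change (y axis) of the 25 tested protein-coding neighbours of EEF1A2 against the distance of their start from that of EEF1A2 in kb (x axis), for labelled ERF KD against labelled CIC KO (top) and ERF KD + CIC KO against WT (bottom); filled points are called neighbours and the diamond is EEF1A2. In the lower panel, the comparison on which EEF1A2 (1.15) was chosen, the neighbours lie between −1.43 and 0.41 and none is called.

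The markers of tissues in which EEF1A2 is normally found were low throughout. Neuron and neuroendocrine markers summed to 61.2 to 104.8 CPM, the largest part from ENO2, and 4 of the 9 passed the filter. Striated muscle markers summed to 10.3 to 16.2 CPM, the largest part from TTN (8.76 to 14.8 CPM), and MYH7, MYH2 and MYOG had 3 counts or fewer in every library. In ERF KD + CIC KO, where EEF1A2 was highest, the sums were 61.2 to 68.1 CPM and 10.3 to 12 CPM, below those of WT at 69.1 to 73.0 CPM and 14 to 16.2 CPM. The muscle sum followed TTN, at 8.76 and 10.9 CPM in ERF KD + CIC KO and 14.8 and 12.3 CPM in WT. Means of the other muscle markers moved both ways. Of the tested neuron and muscle genes, 2 were called, both opposite in direction to EEF1A2. SYP of neurons was lower in ERF KD + CIC KO than in labelled ERF KD (−1.66 ± 0.43, adjusted p = 0.0428), where all 4 tested neuron genes were below 0. In that comparison 11.7% of all genes were called. SYP was 7.97 and 3.58 CPM in labelled ERF KD, so its replicates lay far apart, 1.69 and 1.97 CPM in ERF KD + CIC KO, and 3.28 and 2.91 CPM in WT. ACTC1 of muscle was higher in labelled ERF KD than in labelled CIC KO (2.95 ± 0.71, adjusted p = 0.0375), where 9.4% of all genes were called. Its counts were low, at 30 and 24 against 5 and 2. By TPM the difference was smaller, with 0.549 and 0.930 against 0.367 and 0.361. In that comparison 2 of the 3 tested muscle genes were below 0, the direction of EEF1A2. Any link of these markers to EEF1A2 was not tested.

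The genes with the pattern most like that of EEF1A2 were ranked by Pearson's correlation of log2(CPM + 1) over the 8 libraries, which form 4 groups of 2, among 12606 protein-coding genes with a mean of at least 1 CPM. They were EVPL (r = 0.996), CNNM4 (0.993), RUBCNL (0.992), SASS6 (0.992) and SIPA1L1 (0.989). EVPL, which encodes the desmosomal protein envoplakin, was 109.6 CPM in both WT libraries, 64.7 and 67.8 CPM in labelled ERF KD, 110.2 and 110.5 CPM in labelled CIC KO, and 139.9 and 133.2 CPM in ERF KD + CIC KO. RUBCNL, an autophagy gene, was 3.32 and 2.80 CPM in WT, 0 and 0.0993 CPM in labelled ERF KD, 4.93 and 5.68 CPM in labelled CIC KO, and 8.0 and 8.01 CPM in ERF KD + CIC KO. All 5 were lowest in labelled ERF KD and highest in ERF KD + CIC KO, the feature by which they were ranked.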

How the data were processed

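RNA from PNT2 cells was sequenced in 8 libraries. The authors deposited 1 table per library with estimated counts and TPM for 180253 transcripts; the labels name hg19 as build, the study's methods name RSEM, and the column layout is that of kallisto, so the quantifier and its annotation are not settled by the sources used here. GENCODE v29 (GRCh38) matched 153245 transcripts, which held 93.2% to 93.3% of counts, and coordinates are from it. The deposited estimated counts were summed per gene and rounded; The TPM values deposited by the authors were summed likewise. edgeR 4.0.16 (R 4.3.3) tested all groups in 1 fit (TMM, filterByExpr, quasi-likelihood, Benjamini-Hochberg over 14653 genes, called at adjusted p under 0.05); CPM use TMM library sizes. The script was tested on simulated data. Depth of 19477473 to 25813157 counts limits low genes such as BIRC7 most; intervals cover these libraries only.

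Letters A and B were taken to pair libraries only in the fit with the replicate block, because the deviations of every pair of groups correlated (6 pairs, 0.136 to 0.335). The edgeR fit used for the results has no term for the letter, so its intervals and p-values do not use this pairing. Alternatives were DESeq2 1.42.0, limma 3.58.1 on log2(TPM + 1) and log2(TPM + 0.1), library size only, no filter, the replicate block, length-scaled counts, only the groups compared, pseudogene counts added, and each library left out. Named genes were all members, called list genes (at most 2 in each direction where more than 4 were called), called or nearest neighbours within 500 kb, the 5 genes most like EEF1A2 by correlation, and markers given beside a result. The members and lists were chosen with earlier results of these data known.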

Additional observations from a re-analysis of the deposited data

Results flagged for a closer look

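The effects of the 2 single-loss groups differed, by the edgeR test of labelled ERF KD against labelled CIC KO (2 libraries each), in EEF1A2 (log2 −2.44, adjusted p = 4.82e-05), EIF5A2 (log2 1.09, adjusted p = 0.0246), EIF4EBP2 (log2 −0.57, adjusted p = 0.0182), PTK6 (log2 −1.71, adjusted p = 0.0332) and BIRC7 (log2 −4.79, adjusted p = 0.0235). The PTK6 call held in 5 of 17 alternatives. In each of the 5 genes both libraries of one group lay beyond both of the other. The genes were chosen by this same test, so that separation adds nothing to the calls. STMN3 had an interaction of the 2 losses of log2 −1.48 (adjusted p = 0.0407): it was 34.4 and 49.1 CPM in WT, 56.8 and 54.3 CPM in labelled ERF KD, 47.8 and 51.7 CPM in labelled CIC KO, and 19.0 and 28.5 CPM in ERF KD + CIC KO. The STMN3 interaction was not called without WT replicate A, any single-loss library or ERF KD + CIC KO replicate A (−1.54 to −1.21, adjusted p 0.0772 to 0.14). The epithelial and mesenchymal markers that separate labelled ERF KD from the other groups move with all 6 values, and their part in them was not tested. Groups of 2 libraries are too small for a search for single outlying samples.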

How the results depend on the processing

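The other 6 elongation factors had 0 calls in all 7 comparisons under each of the 17 alternatives, and EEF1A2 in labelled ERF KD against labelled CIC KO stayed called in 17 of 17 (log2 −2.50 to −2.38, adjusted p 9.90e-68 to 0.00174). The replicate block, which pairs the libraries by letter, changed no call of a member. EEF1E1 in ERF KD + CIC KO against WT turned from 0.08 to −0.00137 and −0.00138 under limma on log2(TPM + 1) and log2(TPM + 0.1), both within its error. EEF1A2 was among the genes called higher in ERF KD + CIC KO than in WT in 7 of 17 alternatives and in 0 of the 8 that leave out a library.

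Other named genes held less often. In labelled ERF KD against labelled CIC KO, PTK6 was called in 5 of 17 alternatives, EIF4EBP2 in 9, EIF5A2 in 11 and BIRC7 in 15. The STMN3 interaction was called in 10 of 16. In labelled ERF KD against WT, BIRC7 was called in 10 of 17, EIF5 in 11, EIF5A2 in 12, PTK6 in 12 and EIF4EBP2 in 14. In ERF KD + CIC KO against labelled ERF KD, EIF4EBP2 was called in 11 of 17, EIF5A2 in 12 and STMN3 in 16. Where fewer losses are named above, the rest came from other alternatives.

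The number of translation genes called moved more, and the cause was not tested. In labelled ERF KD against WT it was 3, and 5 with DESeq2, 8 without the filter, 8 with the replicate block, 5 with limma on log2(TPM + 0.1), and 0 to 4 without 1 library (0 without either WT replicate or labelled ERF KD replicate B). In ERF KD + CIC KO against labelled ERF KD it was 2, and 9 with DESeq2, 9 without the filter, 19 with the replicate block, 1 with length-scaled counts, 0 with either limma fit, 1 with only the groups compared, and 0 to 2 without 1 library (0 without either ERF KD + CIC KO replicate, 1 without labelled ERF KD replicate B). In labelled ERF KD against labelled CIC KO it was 2, and 4 with DESeq2, no filter or the replicate block, 1 with length-scaled counts or limma on log2(TPM + 0.1), 0 with limma on log2(TPM + 1) or only the groups compared, and 0 to 2 without 1 library (0 without labelled ERF KD replicate B or labelled CIC KO replicate A). In ERF KD + CIC KO against WT it was 0, and 2 with DESeq2, 1 without the filter and 1 with the replicate block. For the interaction it was 0, and 2 with DESeq2, 1 by library size only, 1 without the filter, 3 with the replicate block, and 0 to 1 without 1 library.

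Over all genes, ERF KD + CIC KO against WT gave 10 calls, and 444 with DESeq2, 768 without the filter, 365 with the replicate block, 1 with limma on log2(TPM + 1) and 0 without any 1 WT or ERF KD + CIC KO library. ERF KD + CIC KO against labelled ERF KD ranged from 702 to 3014, labelled ERF KD against WT from 620 to 2671, labelled ERF KD against labelled CIC KO from 729 to 2424, the interaction from 272 to 1645, ERF KD + CIC KO against labelled CIC KO from 0 to 426, and labelled CIC KO against WT from 0 to 123.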
